A study of Homo sapiens with 6 samples.

Results

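The genes described here encode eIF4E, the proteins related to it and the proteins that compete for it: EIF4E, its paralogs EIF4E2 and EIF4E3, the binding proteins EIF4EBP1, EIF4EBP2 and EIF4EBP3, the transporter EIF4ENIF1, and the scaffolds EIF4G1, EIF4G2 and EIF4G3. They were taken by symbol, and all 10 were found once each among the 29176 genes of the deposited table. Expression had been measured by RNA sequencing in HaCaT, an established line of immortalized human keratinocytes. In the si-eIF4E+M5 group (n = 3) the cells had received a small interfering RNA against eIF4E, and in the si-NC+M5 group (n = 3) a negative control one. Both groups had been stimulated with M5, which the submitters use to model psoriasis in culture, and total RNA was taken at 48 hours. Stimulated cells are thus compared with stimulated cells throughout, in 1 cell line without the other cell types of skin.

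eIF4E grips the methylated cap at the 5' end of messenger RNAs. It joins an eIF4G scaffold and the helicase eIF4A to form eIF4F, which recruits the small ribosomal subunit. The 4E-BPs carry a short eIF4E-binding motif like that of eIF4G and so compete with it, and the kinase mTORC1 phosphorylates them, which releases eIF4E. In many cell types eIF4E is described as scarce relative to its partners, and its transcription is among the known targets of MYC.

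The libraries held between 71044961 and 74246501 counts, and the 10 genes together took between 0.254% and 0.265% of them in the si-eIF4E+M5 libraries and between 0.281% and 0.297% in the si-NC+M5 libraries. Keratinocyte markers were abundant, with 7 of 7 above 1 FPKM (counts scaled by gene length and library total) and a sum between 3274 and 3512 FPKM in si-eIF4E+M5 and between 3235 and 3247 FPKM in si-NC+M5. Markers of other skin cells were near 0, and those with a mean of 1 FPKM or more were 0 of 5 for fibroblasts, 0 of 2 for leukocytes, 0 of 3 for endothelium and 0 of 3 for melanocytes. The fibroblast markers summed to between 0.765 and 1.09 FPKM in si-eIF4E+M5 and between 0.335 and 0.475 FPKM in si-NC+M5. The labels name no separate cultures, so the p-values reflect how these libraries vary, and that variation may be technical.

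Upstream sequence is shown for EIF4E and EIF4G1, since both windows hold the MYC binding motif more than once and MYC is described below among the regulators. RefSeq windows of 300 bases on GRCh38.p14, from 250 bases before an annotated start to 50 after it, were at hand for 9 of the 10 genes, in 16 entries. The letters CACGTG, the E-box, read the same on both strands and are in capitals. The EIF4E window lies on the minus strand at chr4:98929084-98929383, and the EIF4G1 window, the first of 3 for that gene, on the plus strand at chr3:184314356-184314655.
EIF4E: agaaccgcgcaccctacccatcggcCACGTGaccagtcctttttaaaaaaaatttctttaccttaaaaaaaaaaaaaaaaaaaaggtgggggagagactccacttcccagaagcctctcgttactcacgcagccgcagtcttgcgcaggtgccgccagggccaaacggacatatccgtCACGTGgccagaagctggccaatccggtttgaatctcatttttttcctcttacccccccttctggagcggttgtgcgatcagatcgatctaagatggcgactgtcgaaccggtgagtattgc
EIF4G1: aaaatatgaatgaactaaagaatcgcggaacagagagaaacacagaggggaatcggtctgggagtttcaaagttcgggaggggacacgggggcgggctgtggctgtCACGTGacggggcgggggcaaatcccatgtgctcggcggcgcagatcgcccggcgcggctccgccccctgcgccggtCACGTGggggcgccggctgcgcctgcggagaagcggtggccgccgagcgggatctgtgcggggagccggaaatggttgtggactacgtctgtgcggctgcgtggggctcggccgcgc
The E-boxes begin 225 and 72 bases before the start in EIF4E and 144 and 67 bases before it in EIF4G1. At least 1 E-box was found in 7.26% of all 35116 windows and 2 or more in 0.664%. EIF4EBP3 had 1, beginning 13 bases before its start, and both other EIF4G1 windows and those of EIF4E2, EIF4E3, EIF4EBP2, EIF4ENIF1, EIF4G2 and EIF4G3 had 0. The EIF4E window also holds a run of 7 C (CCCCCCC) close to the start, in the kind of pyrimidine-rich element that hnRNP K is known to bind. Such a run, on either strand, was in 5.10% of all windows, among them 1 of the other EIF4G1 windows. These matches describe letters only, and the motif was looked for with the fold changes known.

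EIF4E fell to 41.9% of the si-NC+M5 level, EIF4EBP1 to 73.2%, EIF4G1 to 81.7% and EIF4G2 to 87.8%, while EIF4EBP2 rose to 117% and EIF4E2 to 116%. EIF4E3, EIF4EBP3, EIF4ENIF1 and EIF4G3 did not pass the test. That is 6 of 10 genes with an adjusted p under 0.05 in edgeR, 2 higher and 4 lower, where 15.8% of all 18022 tested genes passed, 7.44% higher and 8.40% lower. Over all genes, which direction had more calls depended on the setting, as given at the end. The median log2 fold change was -0.13 over the 10 genes and -0.01 over all tested genes. In 8 of 10 genes the TMM-scaled CPM (counts per fixed library size with edgeR's scaling factors) did not overlap between the groups, against 33.8% of all tested genes. EIF4E, the target of the small interfering RNA, is counted in the 6 and in the 8, and its fall is part of the design. The calls of EIF4E and EIF4EBP1 held in all alternatives run. The other 4 called genes each lost theirs with some library left out, and between 2 and 4 genes were called with 1 library left out.

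**Figure D1:**
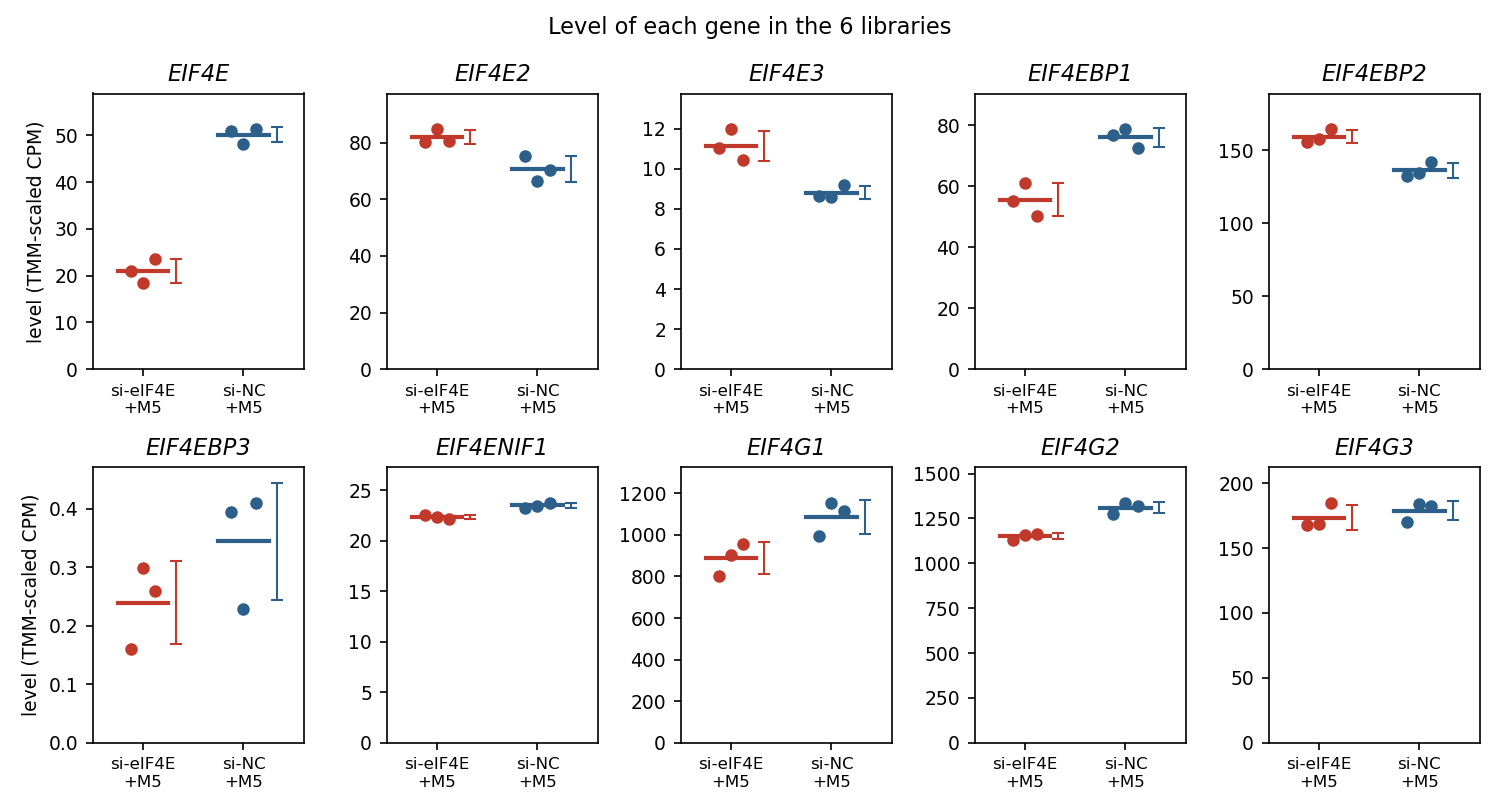
Level of each of the 10 genes in TMM-scaled CPM (vertical axes from 0, a scale for each gene), with a point for each of 3 si-eIF4E+M5 libraries on the left and 3 si-NC+M5 libraries on the right. Horizontal bars are means and whiskers 1 SD. EIF4E shows the largest fold change, with si-eIF4E+M5 libraries between 18.4 and 23.5 CPM and si-NC+M5 libraries between 48.2 and 51.2 CPM, while EIF4EBP3 and EIF4G3 overlapped.

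EIF4E itself (ENSG00000151247, minus strand, chr4:98871684-98930637 in GRCh38) had 21.0, 18.4 and 23.5 CPM in the si-eIF4E+M5 libraries, against 50.9, 48.2 and 51.2 CPM in the si-NC+M5 libraries. The highest si-eIF4E+M5 library thus lay below the lowest si-NC+M5 library by more than the spread within either group. The log2 fold change was -1.25 ± 0.09 (SE, n = 3 per group), with an adjusted p of 7.2e-05 in edgeR. By p-value EIF4E ranked 21 of 18022 genes, and its absolute log2 fold change exceeded that of 97.0% of them.

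A near-identical copy of the EIF4E coding sequence lies elsewhere in the genome. EIF4EP2, a processed pseudogene (ENSG00000229944, minus strand, chr17:49424269-49424922), is an intronless copy of 654 bases. It aligned without gaps to the EIF4E transcript ENST00000450253, matched 650 of 654 bases (99.4%), and covered the whole coding sequence. The longest identical stretch was 473 bases, and reads that fall inside it cannot be assigned by sequence. Counted from 1 at the A of the EIF4E start codon, with the EIF4E base first, the differences are T9C, G55A, C178T and C181T. Positions 158 to 201 are shown because they hold 2 of the 4 differences (in capitals), the letters there that tell the copies apart.
EIF4E: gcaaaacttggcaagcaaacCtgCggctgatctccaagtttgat
EIF4EP2: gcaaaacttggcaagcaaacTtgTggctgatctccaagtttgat
EIF4EP2 had 444, 363 and 317 counts in the si-eIF4E+M5 libraries, against 713, 709 and 701 counts in the si-NC+M5 libraries. It fell together with its parent (log2 fold change -0.97 ± 0.14, adjusted p = 0.00198 in edgeR). Its counts made up between 15.5% and 22.0% of the EIF4E and EIF4EP2 counts together in si-eIF4E+M5 libraries and between 15.7% and 17.4% in si-NC+M5 libraries. With both counted as 1 gene, 43.4% of the si-NC+M5 level was left (95% confidence interval 38.5 to 48.9%), against 41.9% (36.4 to 48.2%) for EIF4E alone. Per length the pseudogene stood above its parent, since its counts were divided by about 0.68 kb and those of EIF4E by 14.7 kb. EIF4EP2 averaged 7.48 ± 1.35 FPKM in si-eIF4E+M5 and 14.3 ± 0.46 FPKM in si-NC+M5 (SD, n = 3 each). EIF4E averaged 1.44 and 3.37 FPKM. Whether reads at the pseudogene came from the parent was not tested. A second copy, EIF4EP1, had 0 counts in all si-eIF4E+M5 libraries and 2, 0 and 0 counts in si-NC+M5 libraries, where 0 counts allow up to 0.043 CPM.

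Of the paralogs EIF4E2 rose and EIF4E3 did not pass. EIF4E2 (4EHP; ENSG00000135930, plus strand, chr2:232550674-232583642) binds caps but not eIF4G, and with GIGYF proteins it represses translation. It had 80.3, 84.6 and 80.7 CPM in si-eIF4E+M5, against 75.4, 66.4 and 70.2 CPM in si-NC+M5. All 3 si-eIF4E+M5 libraries lay above all 3 si-NC+M5 libraries, by 4.92 CPM at the nearest, and the fold change was small (0.21 ± 0.06 on the log2 scale, adjusted p = 0.0463 in edgeR). That call held without si-NC+M5 replicate 1 and was lost without any of the 5 other libraries (adjusted p up to 0.18 in edgeR). On the other strand the antisense gene AC073254.1 overlaps 16.6% of its exon bases and TIGD1 7.54%, with 46 to 63 and 129 to 183 counts in si-eIF4E+M5 and 31 to 42 and 128 to 193 counts in si-NC+M5.

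EIF4E3 (ENSG00000163412, minus strand, chr3:71675414-71754383), which grips the cap in an atypical way and is described as a competitor of eIF4E, had 11.0, 11.95 and 10.4 CPM in si-eIF4E+M5 libraries, against 8.66, 8.58 and 9.19 CPM in si-NC+M5 libraries. The groups did not overlap, yet the gene did not pass (log2 fold change 0.34, 95% confidence interval 0.09 to 0.58, adjusted p = 0.0648 in edgeR). It passed with total counts as scaling (adjusted p = 0.0485 in edgeR) and with DESeq2 (adjusted p = 0.0394). Its level was low, from 600 to 879 counts per library.

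Because EIF4E, the target of the small interfering RNA, was lower and EIF4E2 slightly higher, the make-up of the cap-binding family shifted. Levels of different genes were set side by side per length, as the authors' FPKM. EIF4E averaged 1.44 ± 0.18 FPKM in si-eIF4E+M5 and 3.37 ± 0.14 FPKM in si-NC+M5, EIF4E2 12.04 ± 0.28 and 10.2 ± 0.76 FPKM, and EIF4E3 0.99 ± 0.07 and 0.77 ± 0.03 FPKM (SD, n = 3 each). EIF4E held 10.1, 8.54 and 11.2% of the summed FPKM of the family in si-eIF4E+M5 libraries, against 22.7, 23.9 and 24.0% in si-NC+M5 libraries. The shares did not overlap, and an exact two-sided permutation test gave p = 0.1, the smallest that 3 against 3 libraries allow. The fall of EIF4E is part of the design and enters its share, so this test says nothing of the family beyond the knockdown.

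These shares depend on the length by which counts are divided. The deposited values imply a length of 14.7 kb for EIF4E, close to the union of all its annotated exons, and 6.87 kb for EIF4E2. With the longest coding transcript of each gene (11.5 and 3.53 kb) the share of EIF4E was 6.97 ± 0.95% in si-eIF4E+M5 and 17.2 ± 0.58% in si-NC+M5. Counts at EIF4EP2 are left out of EIF4E in these shares and in the ratios below. The level of EIF4E relative to another gene is therefore uncertain, whereas a change between groups does not depend on length for a single gene.

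Of the binding proteins, EIF4EBP1 fell and EIF4EBP2 rose. EIF4EBP1 (ENSG00000187840, plus strand, chr8:38030534-38060365), the best studied mTORC1-controlled repressor and a known target of the stress factor ATF4, had 55.2, 61.2 and 50.3 CPM in si-eIF4E+M5, against 76.8, 78.6 and 72.5 CPM in si-NC+M5. All si-eIF4E+M5 libraries were below all si-NC+M5 libraries. The log2 fold change was -0.45 ± 0.08 with an adjusted p of 0.00384 in edgeR, and the adjusted p stayed at or below 0.0236 in every alternative. ATF4, taken from a list of regulators, fell as well (433.8 ± 23.6 CPM in si-eIF4E+M5 and 563.0 ± 17.1 CPM in si-NC+M5, log2 fold change -0.38 ± 0.06, adjusted p = 0.00245 in edgeR). Its part in the level of EIF4EBP1 was not tested.

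EIF4EBP2 (ENSG00000148730, plus strand, chr10:70404145-70428618), a repressor with the same mode of binding that is prominent in brain, had 155.5, 157.4 and 164.1 CPM in si-eIF4E+M5, against 132.1, 134.6 and 141.5 CPM in si-NC+M5. The groups stood apart, by 14.0 CPM between the nearest libraries. The rise of 0.22 ± 0.06 on the log2 scale (adjusted p = 0.0224 in edgeR) was lost without any of 4 libraries, si-eIF4E+M5 replicates 2 and 3 and si-NC+M5 replicates 1 and 2 (adjusted p between 0.0517 and 0.0961 in edgeR).

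EIF4EBP3 (ENSG00000243056, plus strand, chr5:140547662-140549576) was close to the limit of what could be measured, with 12, 22 and 19 counts in si-eIF4E+M5 libraries, against 28, 16 and 30 counts in si-NC+M5 libraries. The groups overlapped, and the interval of the log2 fold change ran from -1.68 to 0.64 (adjusted p = 0.578 in edgeR). Changes inside that range could not be detected with so few counts. The readthrough gene ANKHD1-EIF4EBP3, which covers 73.4% of its exon bases on the same strand, had between 4250 and 5724 counts in si-eIF4E+M5 and between 4844 and 5363 counts in si-NC+M5. Reads of the shared exons cannot be told apart, and the readthrough gene did not pass (log2 fold change -0.03 ± 0.11, adjusted p = 0.913 in edgeR). That sign turned with total counts as scaling (0.0012) and without si-eIF4E+M5 replicate 1 (0.11).

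**Figure D2:**
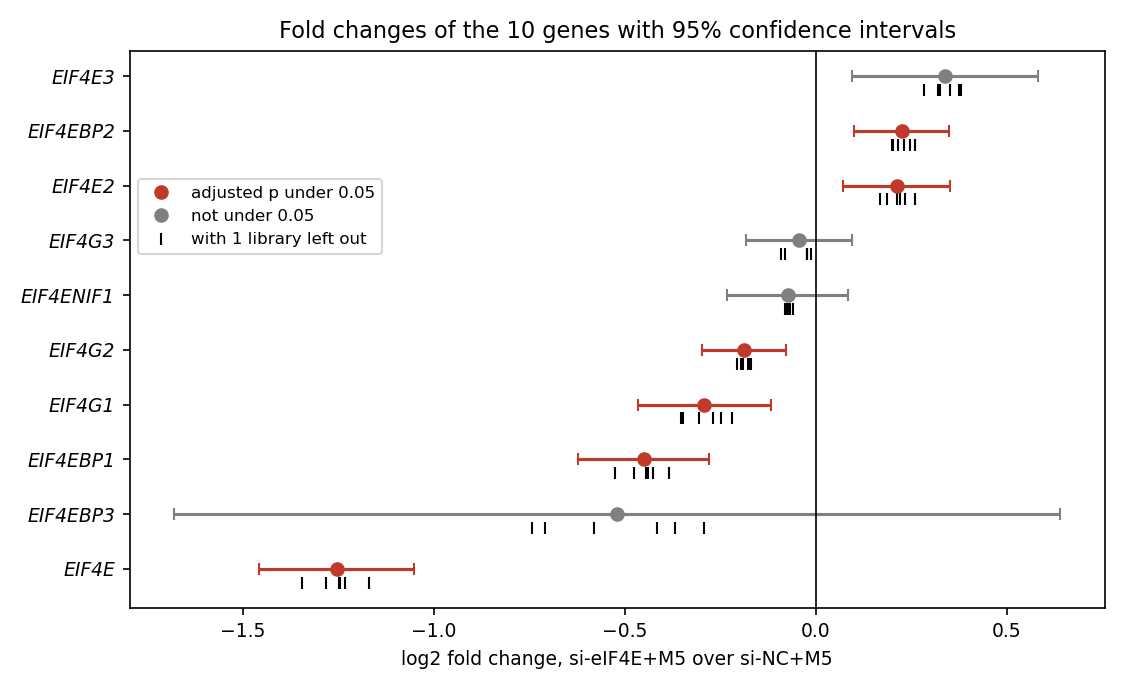
Log2 fold change of each gene, si-eIF4E+M5 over si-NC+M5 (horizontal axis), with 95% confidence intervals from edgeR. Red points had an adjusted p under 0.05, grey points did not, and black ticks are the values with 1 library left out. The ticks of EIF4E lie between -1.35 and -1.17, and EIF4EBP3 has the widest interval, from -1.68 to 0.64.

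Of the scaffolds EIF4G1 and EIF4G2 fell and EIF4G3 did not pass. EIF4G1 (ENSG00000114867, plus strand, chr3:184314495-184335357), the main eIF4G of growing cells, had 804.5, 904.7 and 955.5 CPM in si-eIF4E+M5, against 994.5, 1154 and 1113 CPM in si-NC+M5. The highest si-eIF4E+M5 library was 38.9 CPM below the lowest si-NC+M5 library, a gap smaller than the SD within either group (76.9 CPM in si-eIF4E+M5 and 82.7 CPM in si-NC+M5). EIF4G1 passed with a log2 fold change of -0.29 ± 0.08 (adjusted p = 0.0304 in edgeR). It did not pass without a filter on low counts (adjusted p = 0.107 in edgeR), nor without si-eIF4E+M5 replicate 1 or 2 or si-NC+M5 replicate 2 or 3 (adjusted p up to 0.124 in edgeR).

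EIF4G2 (DAP5; ENSG00000110321, minus strand, chr11:10797050-10808929) lacks the eIF4E-binding site and serves cap-independent and alternative initiation. It was the most abundant of the 10 genes per length, at 130.7 ± 1.20 FPKM in si-eIF4E+M5 and 145.8 ± 1.96 FPKM in si-NC+M5 (SD, n = 3 each). In CPM it had 1130, 1155 and 1164 in si-eIF4E+M5, against 1275, 1336 and 1317 in si-NC+M5. The groups did not overlap and the change was small (log2 fold change -0.19 ± 0.05, adjusted p = 0.0286 in edgeR). The call held without si-eIF4E+M5 replicate 2 and was lost without any of the 5 other libraries (adjusted p up to 0.122 in edgeR).

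EIF4G3 (ENSG00000075151, minus strand, chr1:20806292-21176888), a paralog of EIF4G1 that binds eIF4E, had 167.5, 168.3 and 184.7 CPM in si-eIF4E+M5, against 170.2, 184.03 and 182.5 CPM in si-NC+M5. These libraries overlapped, and the interval of the log2 fold change ran from -0.18 to 0.09 (adjusted p = 0.709 in edgeR). EIF4ENIF1 (4E-T; ENSG00000184708, minus strand, chr22:31436977-31489937), which carries eIF4E into the nucleus and represses messages in P-bodies, had 22.5, 22.4 and 22.1 CPM in si-eIF4E+M5, against 23.3, 23.5 and 23.7 CPM in si-NC+M5. Its groups stood apart by 0.73 CPM and it did not pass (log2 fold change -0.07, 95% confidence interval -0.23 to 0.09, adjusted p = 0.566 in edgeR).

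Per length the 10 genes had nearly the same order in both groups. In si-eIF4E+M5 it ran EIF4G2, EIF4G1, EIF4EBP1, EIF4EBP2, EIF4G3, EIF4E2, EIF4ENIF1, EIF4E, EIF4E3 and EIF4EBP3, with no overlap between neighbours over 3 libraries. In si-NC+M5 EIF4G3 and EIF4EBP2 changed places, at 17.6 ± 0.57 and 17.2 ± 0.55 FPKM, and these were the only neighbours whose libraries overlapped. EIF4E ranked 8 of 10 in each group, as counted per length by the authors. That rank rests on the 14.7 kb length and leaves out counts at EIF4EP2. In si-NC+M5 EIF4E lay only a little below EIF4ENIF1, at 3.37 and 3.63 FPKM.

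Relative to EIF4E, transcripts of repressors and scaffolds were higher in the knockdown, where EIF4E, the target, was itself lower. In si-eIF4E+M5 against si-NC+M5, EIF4EBP1 averaged 60.9 and 81.6 FPKM, EIF4EBP3 0.32 and 0.46, and EIF4G1 97.8 and 117.4. EIF4G3 averaged 17.4 and 17.6 FPKM, and only EIF4EBP2 was higher, at 20.5 and 17.2 FPKM. The summed FPKM of EIF4EBP1, EIF4EBP2 and EIF4EBP3 was 56.3, 69.5 and 47.5 times that of EIF4E in si-eIF4E+M5 libraries, against 29.2, 31.4 and 28.0 times in si-NC+M5 libraries. That is a 1.94-fold higher ratio (0.95 on the log2 scale). Summed as CPM, where EIF4EBP2 weighs more than EIF4EBP1, the ratio was higher by 1.28 on the log2 scale. For EIF4G1 and EIF4G3 together the ratio to EIF4E was 73.5, 92.4 and 76.8 in si-eIF4E+M5, against 36.3, 44.1 and 40.2 in si-NC+M5, a 2.01-fold higher ratio. Neither ratio overlapped between the groups, and each gave p = 0.1 in an exact two-sided permutation test, the smallest possible here. With the longest coding transcript as length the ratios were 42.8 ± 8.03 in si-eIF4E+M5 and 21.6 ± 1.23 in si-NC+M5 for the binding proteins, and 102.2 ± 12.8 and 50.8 ± 4.89 for the scaffolds. They are ratios of transcripts, leave out the counts at EIF4EP2, and say nothing of protein amounts.

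**Figure D3:**
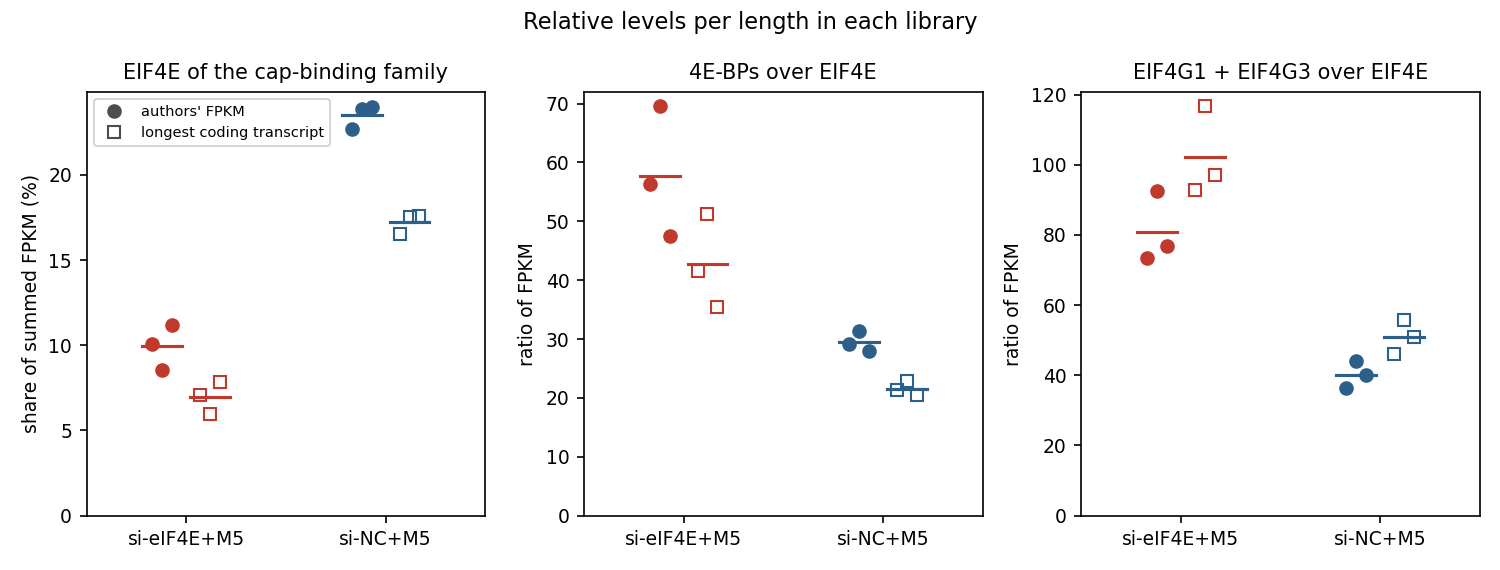
Share of EIF4E in the summed FPKM of EIF4E, EIF4E2 and EIF4E3 (left, %), and FPKM ratios of the 4E-BPs (middle) and of EIF4G1 plus EIF4G3 (right) to EIF4E, for 3 si-eIF4E+M5 libraries (red) and 3 si-NC+M5 libraries (blue), with bars at the means. Filled circles use the authors' FPKM and open squares the longest coding transcript as length. Within either length the groups do not overlap, as in the shares of 8.54 to 11.2% in si-eIF4E+M5 and 22.7 to 24.0% in si-NC+M5. EIF4E, the target of the small interfering RNA, enters each panel.

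The mean ratio of EIF4E to each other gene was lower in si-eIF4E+M5. EIF4E was the target of the small interfering RNA, so its own fall enters every ratio. How often its ratio to any tested gene would separate the groups was not computed. Of 9 ratios of EIF4E to another of the genes, 8 did not overlap between groups, with p = 0.1 each in the exact permutation test (0.112 after Benjamini-Hochberg adjustment over the 9). The ratio to EIF4E3 differed most (log2 difference -1.60), followed by EIF4EBP2 (-1.49) and EIF4E2 (-1.48). The ratio to EIF4EBP1 differed least among these 8 (-0.81), since EIF4EBP1 fell too. The ratio to EIF4EBP3 overlapped (-0.72, exact permutation p = 0.3).

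Related genes were taken as 6 lists, each of 7 to 17 tested genes, and at most 2 genes passed in any of them. Of 13 cofactors of eIF4F, 1 rose and 1 fell (15.4%, near the 15.8% of all tested genes), with a median log2 fold change of -0.06. PDCD4, an inhibitor of eIF4A, rose (149 ± 3.53 CPM in si-eIF4E+M5 and 126 ± 6.35 CPM in si-NC+M5, adjusted p = 0.0199 in edgeR), a call lost without si-eIF4E+M5 replicate 2 or 3 or si-NC+M5 replicate 1 or 2 (adjusted p up to 0.0925 in edgeR). PABPC4, a poly(A)-binding protein, fell by 0.18 on the log2 scale (adjusted p = 0.0444 in edgeR), and its call was lost with any of the 6 libraries left out (adjusted p up to 0.172 in edgeR). The helicase genes of eIF4F, chosen after their values were seen, did not pass, with EIF4A1 at -0.11 ± 0.07 and EIF4A2 at 0.12 ± 0.06.

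In the list of mTORC1 and MNK signalling 1 of 17 genes rose and 1 fell (11.8%, against 15.8% of all tested genes), with a median of -0.01. MAPK3, encoding the kinase ERK1, which activates MNK, rose (48.8, 54.5 and 55.7 CPM in si-eIF4E+M5, against 40.1, 41.2 and 38.5 CPM in si-NC+M5, log2 fold change 0.41 ± 0.07, adjusted p = 0.00375 in edgeR). MAPK14, encoding p38α, which also activates MNK, fell by 0.29 on the log2 scale (adjusted p = 0.015 in edgeR). The call was lost without si-eIF4E+M5 replicate 1 or 2 or si-NC+M5 replicate 3 (adjusted p up to 0.0616 in edgeR). The kinases that phosphorylate eIF4E were chosen after their values were seen. MKNK1 had a log2 fold change of -0.17 ± 0.07 (adjusted p = 0.123 in edgeR) and passed in no alternative. MKNK2 had one of 0.22 ± 0.07 and did not pass (adjusted p = 0.0629 in edgeR). It did pass with total counts as scaling (0.0206), DESeq2 (0.00653), both limma fits (0.0317 and 0.0308), the replicate block (0.0174) and without si-eIF4E+M5 replicate 1 (0.0435), all adjusted p. MTOR, also chosen afterwards, stood at 0.003 ± 0.105.

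Among 11 partners of EIF4E2 and EIF4ENIF1, 2 fell and 0 rose (18.2%, near the 15.8% of all tested genes, median -0.08). ZNF598, a ubiquitin ligase of stalled ribosomes that is found with EIF4E2 and GIGYF2, had 90.9, 91.4 and 84.1 CPM in si-eIF4E+M5, against 126.2, 142.7 and 119.5 CPM in si-NC+M5 (log2 fold change -0.54 ± 0.07, adjusted p = 0.00137 in edgeR). EIF4E2 rose slightly in the same libraries, with a call lost in 6 of 13 alternatives. GIGYF1 and GIGYF2, chosen after their values were seen, did not pass, at -0.12 ± 0.08 and -0.03 ± 0.10 on the log2 scale. DCP1A, a decapping cofactor, fell by 0.46 on the log2 scale (adjusted p = 0.0234 in edgeR). That call was lost without a filter, in limma, and without si-eIF4E+M5 replicate 1 or 2 or si-NC+M5 replicate 2 or 3 (adjusted p up to 0.0954).

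Of 7 tested genes for other proteins that bind eIF4E, 1 rose and 1 fell (28.6% of a short list, against 15.8% of all tested genes, median -0.17). GEMIN5, which binds caps and snRNAs, had 16.0, 16.8 and 17.7 CPM in si-eIF4E+M5, against 27.8, 33.1 and 33.1 CPM in si-NC+M5. After EIF4E itself this was the largest called change in the 10 genes and the 6 lists (log2 fold change -0.90 ± 0.09, adjusted p = 0.000345 in edgeR). PML, an inhibitor of eIF4E in nuclear bodies, rose (log2 fold change 0.26 ± 0.06, adjusted p = 0.0151 in edgeR), a call lost without si-eIF4E+M5 replicate 2 or si-NC+M5 replicate 1 (0.0538 and 0.0687). Of 7 tested genes for other cap-binding proteins, NCBP2, a subunit of the nuclear cap-binding complex, fell by 0.27 on the log2 scale (adjusted p = 0.0124 in edgeR) and 0 rose (14.3%, near the 15.8% of all tested genes, median -0.13). Without si-NC+M5 replicate 1 or 2 NCBP2 did not pass (adjusted p = 0.0561 and 0.0524 in edgeR). LARP1, which covers the caps of messages with a pyrimidine tract, was picked with its values in view and missed the threshold (log2 fold change -0.28 ± 0.08, adjusted p = 0.0523 in edgeR). LARP1 did pass with total counts as scaling (0.0484), DESeq2 (0.0103), the replicate block (0.00873) and without si-eIF4E+M5 replicate 3 (0.0423) or si-NC+M5 replicate 1 (0.0267), all adjusted p.

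Of 13 regulators of the EIF4E and 4E-BP transcripts and proteins, 2 fell and 0 rose (15.4%, near the 15.8% of all tested genes), with a median of -0.003. These were ATF4, above, and MYC, with 238.2, 265.3 and 246.2 CPM in si-eIF4E+M5, against 432.3, 471.2 and 407.1 CPM in si-NC+M5 (log2 fold change -0.81 ± 0.07, adjusted p = 0.000163 in edgeR). MYC was thus lower in all 3 si-eIF4E+M5 libraries. Those of the 10 genes that fell or have an E-box are listed here without weighing them. EIF4E, itself the target of the small interfering RNA, and EIF4G1 fell and have E-boxes, EIF4G2 fell with 0 in both of its windows, EIF4EBP3 has 1 and did not pass, and EIF4EBP1 fell with no window at hand. The part of MYC in these levels was not tested. HNRNPK, chosen after its values were seen, did not pass (-0.06 ± 0.06).

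**Figure D4:**
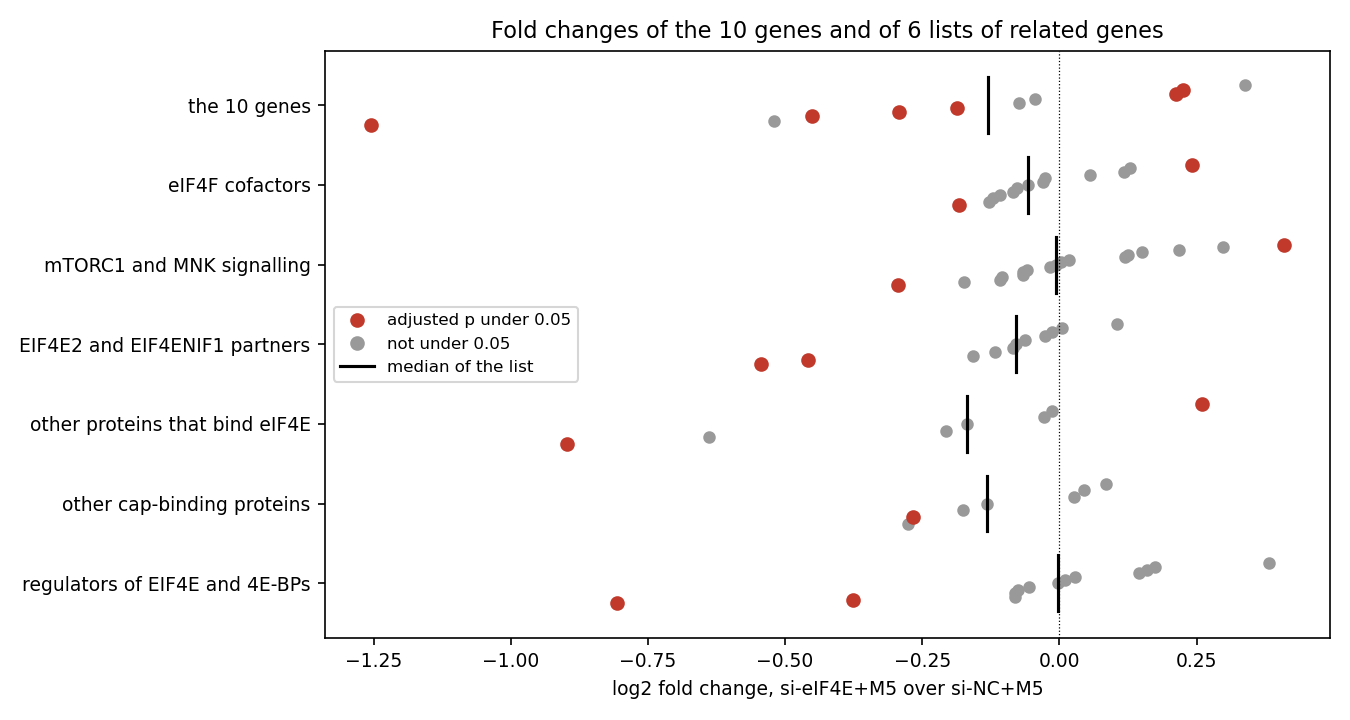
Log2 fold change, si-eIF4E+M5 over si-NC+M5 (horizontal axis), of the 10 genes in the top row and of the tested genes of 6 lists below it, with a point for each gene, red where the adjusted p was under 0.05, and a black bar at the median of each row. The medians of the lists lie between -0.17 and -0.003, and EIF4E, at -1.25, lies farthest from 0.

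The genes whose levels most resembled those of EIF4E over the 6 libraries were MRPS16, SZRD1 and POLR3E. Among 6772 genes of at least 5 FPKM their log2 CPM had the highest Pearson correlations with it, 0.9995, 0.999 and 0.998. The 6 libraries come from 2 groups, so these values rest mostly on the difference between the groups. SZRD1 had 129.3, 122.8 and 139.4 CPM in si-eIF4E+M5, against 224.6, 221.1 and 223.5 CPM in si-NC+M5 (log2 fold change -0.77 ± 0.06). MRPS16, of the mitochondrial ribosome, and POLR3E, of RNA polymerase III, changed less, with log2 fold changes of -0.24 ± 0.05 (adjusted p = 0.0126 in edgeR, 0.0547 without si-eIF4E+M5 replicate 1) and -0.46 ± 0.06.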

How the data were processed

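The deposited table holds, per the file headers, a raw count and an FPKM value for each gene in 6 libraries. Per the submitters' processing notes, cutadapt 1.9 and FastQC were among the tools and GRCh38 was the build. Which aligner, counter and annotation served, and whether strand was used, is not given in the sources used here. In the deposited values, FPKM by the authors divides each count by a gene length and by the library total.

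The test was the quasi-likelihood one of edgeR 4.0.16 under R 4.3.3, two-sided, with TMM factors, on 18022 genes kept by filterByExpr at a minimum of 10 counts, and p-values were adjusted by Benjamini-Hochberg over all tested genes, with a threshold of 0.05. The test was checked on simulated counts in which all genes shared the same dispersion, a simpler setting than these data. Across genes the biological coefficient of variation was 17.4% (common dispersion). The library totals put the floor of 3 counts between 0.040 and 0.043 CPM, and floors and counting intervals cover counting error only. No library copied another of its group, since their counts differed by a chi-squared of 23.1 to 27.8 for each degree of freedom.

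Shares and ratios used FPKM per library, with an exact permutation test (scipy 1.17.1). GENCODE v29 gave exon overlaps and transcript lengths, and Biopython 1.88 aligned EIF4EP2. Figures were drawn with matplotlib 3.10.9. Alternatives used DESeq2 1.42.0 and limma 3.58.1 on log2(FPKM + 1) and log2(FPKM + 0.5).

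The genes, the lists and the rule for naming genes (up to 3 called genes per direction and list, by p-value) were chosen with earlier results of these data known, and a gene named outside that rule is marked as such beside its value.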

Additional observations from a re-analysis of the deposited data

How the results depend on the processing

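All 10 genes kept the sign of their fold change in each of 7 other settings and with each of 6 libraries left out. The calls of EIF4E and EIF4EBP1 held throughout, with EIF4E between -1.35 and -1.17 on the log2 scale when 1 library was left out. EIF4E2 ranged from 0.17 to 0.26, EIF4EBP2 from 0.20 to 0.26, EIF4G1 from -0.35 to -0.22 and EIF4G2 from -0.21 to -0.17 in these fits, each losing its call in 4 or 5 of them. Of the 10 genes 2 to 4 were called with 1 library left out, and of all genes 1598 (without si-NC+M5 replicate 2) to 2283. The lists then gave 0 to 1 called genes (eIF4F cofactors), 1 to 2 (mTORC1 and MNK signalling), 1 to 2 (partners of EIF4E2 and EIF4ENIF1), 1 to 2 (other proteins that bind eIF4E) and 0 to 2 (other cap-binding proteins). These fits have fewer samples.

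Without a filter on low counts 1818 genes were called, against 2853, with 1 eIF4F cofactor and 1 partner of EIF4E2, and EIF4E2 (0.21) and EIF4G1 (-0.29) lost their calls. With total counts as scaling EIF4E3 passed (0.37), with 1 eIF4F cofactor and 2 other cap-binding proteins called. Median ratio scaling left 1 eIF4F cofactor. With DESeq2 EIF4E3 passed (0.35) and 2 cap-binding proteins were called. With limma on log2(FPKM + 1) or log2(FPKM + 0.5) 1 partner of EIF4E2 was called. Over all genes 1340 were called higher and 1513 lower in the main fit. More were higher than lower with total counts (1598 and 1281), DESeq2 (1774 and 1660) and limma on log2(FPKM + 1) (1397 and 1099). More were lower with median ratio scaling (1387 and 1402), without a filter (801 and 1017) and with the replicate block (1586 and 1828). The cause of these changes was not tested. MTOR (0.003) turned to -0.00064 with the replicate block and ranged from -0.11 to 0.094 with 1 library left out, below 0 without si-eIF4E+M5 replicate 3 (-0.11) or si-NC+M5 replicate 1 (-0.08). ANKHD1-EIF4EBP3 turned to 0.0012 with total counts and 0.11 without si-eIF4E+M5 replicate 1.

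The replicate number as a block gave the same 6 calls among the 10 genes, 3 called cap-binding proteins in place of 1, and 3414 called genes. Deviations of same-numbered libraries correlated by 0.03 to 0.04, and those of differently numbered libraries by -0.03 to -0.002. Each library thus correlated best with its own number, though weakly. Whether same-numbered libraries were made together was not tested, and the main fit uses no pairing. Differences in shares and ratios kept their sign in all settings. Of 15 other named genes that were called, 7 lost the call in some setting. EIF4EBP3 is limited by its few counts, at most 30 per library.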
